A study of Mus musculus with 35 samples.

Results

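The regions described here were stretches of mouse chromatin that carried histone H3 lysine 27 acetylation (H3K27ac) in fibroblasts, on day 3 and on day 9 of reprogramming, and not in embryonic stem cells (ESC). They were found by merging the peaks of 12 H3K27ac libraries on chromosomes 1 to 19 and X wherever they shared at least 1 bp, which gave 179334 merged regions. Regions were chosen by their H3K27ac peaks: a region was taken when it had a peak in both fibroblast libraries, in all 3 day 3 libraries and in both day 9 libraries, and in neither ESC library. That left 1292 regions, 0.720% of all merged regions, which together covered 3.98 Mb. They are called held regions below, and held stands for these 7 libraries and says nothing of day 6, whose lists the rule did not use. Because H3K27ac in these 7 libraries and its absence in ESC chose the regions, those values are given as a description, without a test.

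The cells were mouse embryonic fibroblasts (MEF) of genotype OKSM Col1a1/M2rtTA ROSA26 on a C57BL/6 x 129 background. A doxycycline-responsive transactivator in Rosa26 switches on a single cassette at Col1a1 that encodes Oct4, Klf4, Sox2 and c-Myc, so KLF4 protein from day 3 to day 9 can come from the transgene. The MEF H3K27ac libraries came from cells in MEF medium without doxycycline. The label of the MEF input, which was not used here, does give doxycycline and ascorbic acid. Day 3, day 6 and day 9 cells carried the same alleles and were kept in ESC medium, to which doxycycline (1 µg/ml) and ascorbic acid (50 µg/ml) had been added. Day 3 cells were unsorted, and day 6 and day 9 cells were sorted for SSEA1, a surface sugar of mouse pluripotent cells. The ESC were of line V6.5, without the transgenes, in serum and LIF on irradiated feeder cells, which are commonly fibroblasts. KLF4 was also profiled in V6.5 cells with 2i, which here meant 1 µM of a drug against the kinase MEK plus 3 µM of one against GSK3. The lists used were 12 for H3K27ac (MEF 2, day 3 3, day 6 3, day 9 2, serum ESC 2) and 10 for KLF4 (2 each at day 3, day 6, day 9, serum ESC and 2i ESC).

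Acetylation of lysine 27 is placed by the acetyltransferases p300 and CBP and marks active enhancers and promoters. Reprogramming factors are known to draw down the enhancers of the starting fibroblast, many of which are occupied by AP-1, TEAD and RUNX factors, while the enhancers of the pluripotent state are switched on later. KLF4 is a zinc finger factor that binds GC-rich sites of the GGGNGTGG type and has roles both in reprogramming and in ESC.

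Only 146 of 21020 RefSeq promoter windows (250 bases before to 50 after a gene's start, GRCm38.p6, which has the coordinates of mm10) lay wholly in held regions. These windows belonged to 135 genes and 132 regions. The windows of 4 genes are printed because they show how differently KLF4 met held promoters. The smooth muscle actin gene Acta2 (chr19:34255324-34255623, minus strand) lay in the strongest of their 4 regions, and KLF4 peaks lay over its window in 1 of 6 day libraries. At the thrombospondin gene Thbs2 (chr17:14694213-14694512, minus strand) a KLF4 peak lay over the window in all 6 day libraries and in 1 of 4 ESC libraries. At Lhfp (chr3:53041297-53041596, plus strand), which encodes a tetraspan membrane protein, KLF4 peaks lay over the window in both day 3 libraries, in none of days 6 and 9, and in 3 of 4 ESC libraries. At Nfatc2 (chr2:168601608-168601907, minus strand), a calcineurin-regulated transcription factor gene, no day library and 1 ESC library had one. A window in a held region need not have an H3K27ac peak itself. Such a peak lay over the Acta2, Lhfp and Nfatc2 windows in all 7 libraries of the rule, and over the Thbs2 window in 5. Of all 146 windows, 66.4% to 95.9% had one in a given library of the rule. Capitals mark matches, on either strand, to any of 7 motifs searched: AP-1 (TGANTCA), TEAD (GGAATG), KLF (GGGNGTGG), RUNX (TGTGGTT), octamer (ATGCAAAT), ETS (CCGGAA) and SP (GGGCGG, read as its reverse complement where it lies on the other strand).
Acta2: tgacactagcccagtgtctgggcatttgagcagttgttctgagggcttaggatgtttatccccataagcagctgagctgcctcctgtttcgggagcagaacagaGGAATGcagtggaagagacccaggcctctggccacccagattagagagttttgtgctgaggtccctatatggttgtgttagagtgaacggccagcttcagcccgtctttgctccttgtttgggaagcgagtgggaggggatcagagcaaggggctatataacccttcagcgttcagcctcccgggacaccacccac
Thbs2: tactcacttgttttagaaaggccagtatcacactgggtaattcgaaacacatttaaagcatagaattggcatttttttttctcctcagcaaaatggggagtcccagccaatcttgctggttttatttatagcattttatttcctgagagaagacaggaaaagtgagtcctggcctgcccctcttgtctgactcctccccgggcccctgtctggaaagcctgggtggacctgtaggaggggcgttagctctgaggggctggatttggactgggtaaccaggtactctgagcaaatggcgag
Lhfp: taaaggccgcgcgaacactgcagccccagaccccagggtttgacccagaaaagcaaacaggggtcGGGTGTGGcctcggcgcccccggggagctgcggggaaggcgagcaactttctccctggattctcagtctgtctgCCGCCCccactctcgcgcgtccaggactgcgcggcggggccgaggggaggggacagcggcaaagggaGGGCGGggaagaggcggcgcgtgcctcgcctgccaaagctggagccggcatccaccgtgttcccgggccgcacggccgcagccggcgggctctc
Nfatc2: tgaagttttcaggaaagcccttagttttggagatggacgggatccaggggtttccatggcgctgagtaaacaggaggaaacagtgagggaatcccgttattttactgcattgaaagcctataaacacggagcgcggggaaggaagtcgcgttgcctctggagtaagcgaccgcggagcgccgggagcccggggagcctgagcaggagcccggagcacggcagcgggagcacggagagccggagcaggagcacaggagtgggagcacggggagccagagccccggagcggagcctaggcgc
The Acta2 window held 1 match to TEAD letters, the Lhfp window 1 to KLF and 2 to SP letters, and the Thbs2 and Nfatc2 windows none to any of the 7. A match is a description of letters and not a site.

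Over all 146 held promoter windows, AP-1 letters were found in 19 (13.0%), against 7.04% of all promoter windows. KLF letters stood in 31 (21.2%, all promoters 19.6%), TEAD letters in 14.4% (13.5%), RUNX letters in 4.79% (4.73%) and SP letters in 47.3% (46.6%). ETS letters were in 10.3% of held windows against 18.9% of all, and the octamer in 1.37% against 1.68%. So the shares for TEAD, KLF, RUNX, octamer and SP letters lay within 2 percentage points of those of all promoters, while AP-1 lay above and ETS below. KLF4 peaks were more often over the 31 windows with KLF letters than over the 115 without in each of the 10 KLF4 libraries. On day 3 these shares were 54.8% against 47.8% in the EA-3702 library and 41.9% against 26.1% in the DG-4040 library. In 2i ESC they were 32.3% against 18.3% and 32.3% against 16.5%. These are counts over windows that share their libraries, and no test was made of them.

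The cell labels were checked against marker genes with an H3K27ac peak within the gene or 2.5 kb of it. Of 16 fibroblast markers, 16 had a peak in both MEF libraries, 13 to 14 on day 3, 5 to 6 on day 6, 7 to 8 on day 9 and 8 to 9 in ESC. Of 10 ESC markers, 10 had one in both day 9 and both ESC libraries, and 2 to 4 in the MEF, day 3 and day 6 libraries. Held regions lay at 2 of the 16 fibroblast markers, Col6a2 and S100a4, and at none of the 10 ESC markers, against 3.57% of all protein-coding genes. At that share lists of this size would hold few, so these counts are not a result about the markers. Endothelial markers with a peak numbered 9 of 10 in both MEF libraries and 1 to 7 elsewhere, macrophage markers 6 to 7 of 10 in MEF, and skeletal muscle markers 4 to 5 of 10 in MEF with Myod1, Myf5 and Myf6 at none. Whether other cells in the MEF population contributed to held regions was not tested. A peak list from a bulk population cannot tell a few cells with strong acetylation from many cells with weak acetylation, and no read depth is given. List length ran from 17493 to 22462 peaks on day 6, against 41471 to 50836 on day 3, 43974 to 45506 on day 9, 81231 to 81971 in ESC and 88070 to 88347 in MEF. The codes DG-3458, EA-3702 and the like were read from the library titles, which do not say what they stand for. They are called batches here. MEF and ESC H3K27ac libraries carried DG-3458 and day 9 libraries EA-3702, so for these stages batch and stage cannot be told apart.

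Held regions were wide, and they lay near gene ends about as often as all merged regions. Their median width was 2649 bp (quartiles 1878 and 3790, range 583 to 13735), against 542 bp over all merged regions. A region needed peaks in at least 7 libraries to be taken, which by itself favours wide regions. In all, 894 (69.2%) overlapped the span of a protein-coding gene, against 56.2% of all regions, and 163 (12.6%) lay more than 50 kb from any, against 17.7% of all regions. A gene end lay within 2.5 kb of 229 held regions (17.7%), close to the 16.1% of all regions. Of 1243 held regions on chromosomes with a table of start sites, 146 (11.7%) contained one, against 6.02% of all regions. That share was 65.2% among regions that had a peak in all MEF, day 3, day 9 and ESC libraries (10651, called kept in ESC) and 3.70% among regions with a peak in all MEF and day 3 libraries and in no day 9 or ESC library (1767, called lost by day 9). The nearest ESC peak was a median of 16363 bp from a held region (quartiles 5801 and 43109). It was within 1 kb for 58 of them (4.49%) and beyond 50 kb for 278 (21.5%). The regions were spread over all 20 chromosomes examined, from 25 on X to 101 on chromosome 7. When regions at most 12.5 kb apart were joined, 162 (12.5%) fell into 79 clusters and the other 1130 stood alone.

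The rule has a sharp edge, and many regions lay just outside it. A further 810 regions had a peak in 6 of the 7 libraries and in no ESC library. The library without a peak was most often a day 9 library (223 and 150 regions) or the second DG-3458 library of day 3 (198), and for the other 4 libraries 37 to 74 regions. Another 459 regions had all 7 peaks and a peak in 1 of the 2 ESC libraries, 229 in one and 230 in the other. Strength is given here as a percentile: the rank of a region's best peak by the authors' score in that library's own list, where 100 is the strongest. Just inside the edge, a region in Fam110c (chr12:31073452-31079737) had its weakest peak at percentile 0.103 in a MEF library, while its day 3 peaks lay between 81.5 and 91.9 and its day 9 peaks at 72.8 and 71.8. A region in the oxidation resistance gene Oxr1 (chr15:41829907-41831627) passed on a day 3 peak at 0.117, and one in C1qtnf5 and Mfrp (chr9:44105088-44110015) on a day 9 peak at 0.151. Just outside, a region 221 kb from the protease gene Pappa (chr4:64899621-64903014) had peaks in MEF and day 3 libraries at 91.3 to 98.3 and 1 day 9 peak at 46.7. In Cd109, a surface protein gene, a region (chr9:78620184-78630420) had all 7 peaks at 96.9 to 99.0 and was left out for 1 ESC peak at 20.9.

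Over the 7 libraries of the rule the held regions were of middling to high rank. Their median percentile was 76.9 and 77.6 in the MEF libraries, 73.6, 72.9 and 64.9 in the day 3 libraries and 54.1 and 56.3 in the day 9 libraries. Regions kept in ESC ranked higher in every one of these libraries, at 91.5 and 91.6, then 82.4 to 86.3, then 85.4 and 86.3. The gap between both sets was wider in each day 9 library than in any MEF or day 3 library. The ranks come from lists of different lengths, and a change of rank between stages was not read as a change of acetylation. The plot of median percentiles shows these values by library.

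**Figure D1:**
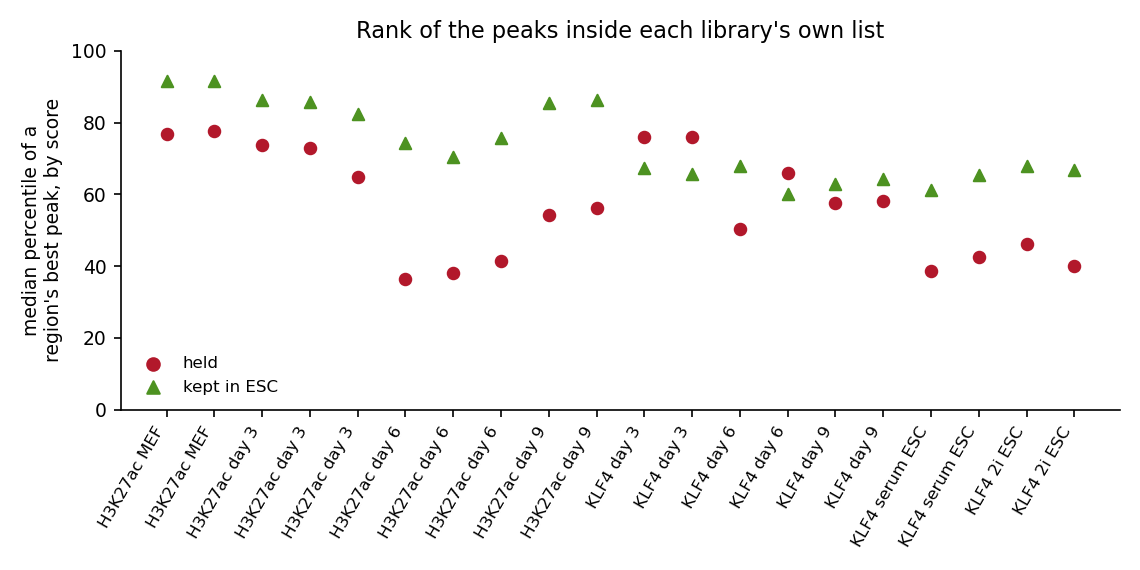
Median percentile (by the authors' score, within each library's own list) of the best peak of held regions (red circles) and of regions kept in ESC (green triangles), 1 position per library. Held regions lie below regions kept in ESC in the 10 H3K27ac libraries shown, at 36.4 to 41.5 on day 6, and above them in both day 3 KLF4 libraries, at 76.0, and in the DG-4040 KLF4 library of day 6, at 65.8 against 60.1.

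Day 6 was not used to choose the regions. Of the 1292 held regions, 508 (39.3%) had a peak in the first DG-3458 library of day 6, 387 (30.0%) in the second and 771 (59.7%) in the EA-3702 library. The mean was 43.0% ± 15.2 (SD, n = 3), and the EA-3702 library stood well above the other 2. A peak in all 3 libraries was found for 284 held regions (22.0%), against 5.61% of all merged regions. A further 234 had 2 (18.1%, all regions 1.58%), 346 had 1 (26.8%, all regions 3.82%), and 428 had none (33.1%, all regions 89.0%), so the word held goes against the day 6 lists for these 428 regions. Where held regions had a day 6 peak it ranked low, with a median percentile of 36.4, 38.2 and 41.5, against 70.4 to 75.7 for regions kept in ESC.

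The day 6 share of held regions was set beside that of 4 classes that differ from them at 1 stage. Regions lost by day 9 had a day 6 peak in 2.74% ± 1.94 (SD, n = 3), and regions kept in ESC in 86.0% ± 4.76 (n = 3). Regions new at day 3 (1094, with a peak in all day 3 and day 9 libraries and no MEF or ESC library) had one in 39.1% ± 21.5 (n = 3). Regions absent at day 3 (468, with a peak in both MEF and both day 9 libraries and no day 3 or ESC library) had one in 9.05% ± 2.79 (n = 3). In promoter windows these classes also differed: AP-1 letters were in 33.3% of 15 windows in regions new at day 3, 22.9% of 35 in those absent at day 3, 9.52% of 63 in those lost by day 9 and 3.87% of 8273 in those kept in ESC, so the 13.0% of held windows lay among them. ETS letters were in 6.67%, 14.3%, 3.17% and 34.1% of the same windows. For day 6 acetylation, held regions were 40.2 percentage points above those lost by day 9, 33.9 above those absent at day 3 and 43.0 below those kept in ESC (differences of 40.2, 33.9 and -43.0), each in the same direction in 3 of 3 libraries. With 3 libraries an exact permutation of signs (two-sided) cannot go below p = 0.250, which all 3 differences reached (adjusted p = 0.275 over 11 tests). The difference from regions new at day 3 was 3.86 percentage points (exact p = 0.500, adjusted p = 0.500). It was 7.72 in batch DG-3458 and -3.85 in batch EA-3702, so its direction was not the same in both batches. Median width was 2649 bp for held regions, 2154 for those lost by day 9, 2577 for those kept in ESC, 1930 for those new at day 3 and 1348 for those absent at day 3, and the part of width in these differences was not tested. Counted within 500 bp of each region's middle alone, the difference from regions new at day 3 was -1.14 percentage points (exact p = 1.00), and with H3K27ac lists of equal length and the classes drawn again, that from regions kept in ESC was -11.4 and that from regions lost by day 9 was 68.6.

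The day 6 lists were short, so every H3K27ac list was also reduced to its 17493 strongest peaks. Among these, held regions had a peak in 44.3% and 44.0% of cases in the MEF libraries and in 70.4% (EA-3702), 61.2% and 59.9% in the day 3 libraries. On day 6 the shares were 32.0%, 30.0% and 46.7% (EA-3702), and on day 9 they were 41.4% and 40.5%. Regions kept in ESC stayed between 81.7% and 90.1% in the same 10 libraries. At equal length, then, day 3 lists covered the most held regions, and the EA-3702 library of day 6 lay above both day 9 libraries, which were of the same batch, while the 2 DG-3458 libraries lay below them. The comparison of equal lists was chosen after the data were seen and is a description, because the rule used the MEF, day 3 and day 9 lists.

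**Figure D2:**
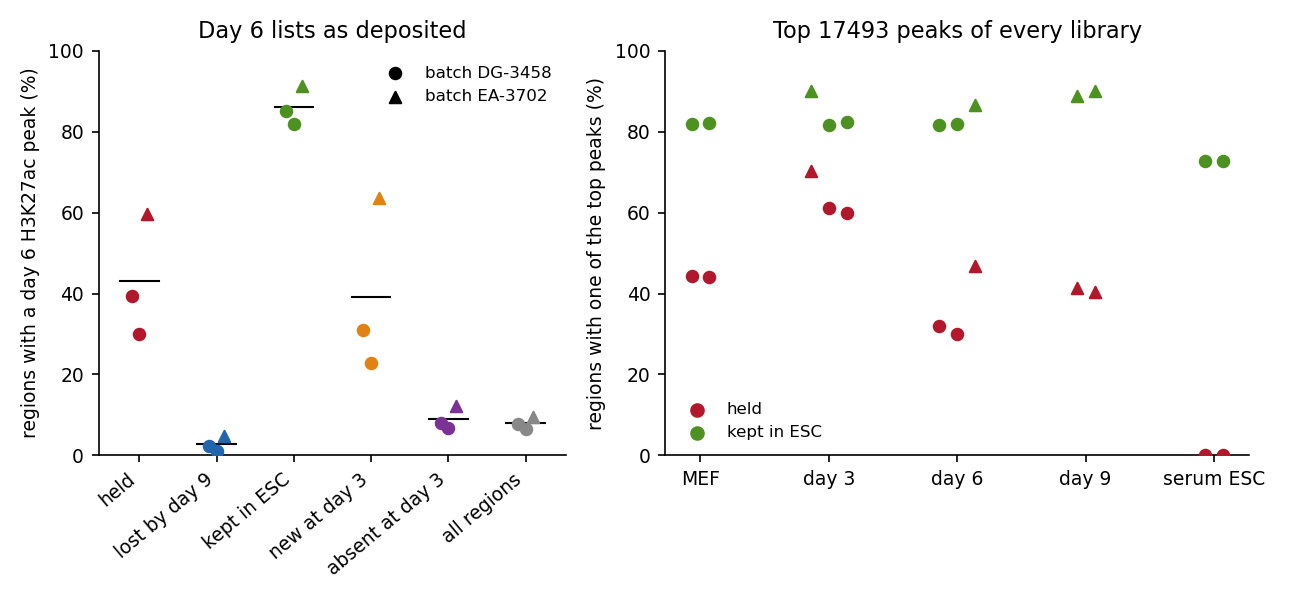
Left, percent of regions of each class with a day 6 H3K27ac peak, 1 point per library and the mean as a line; the 3 held values are 39.3%, 30.0% and 59.7%. Right, percent of held regions (red) and regions kept in ESC (green) with one of the 17493 strongest H3K27ac peaks of each library, circles for batch DG-3458 and triangles for EA-3702.

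KLF4 lists took no part in the choice. KLF4 peaks overlapped 72.9% of held regions in the EA-3702 library of day 3 and 55.8% in the DG-4040 library. On day 6 the shares were 43.0% and 44.9%, and on day 9 35.6% and 36.3%. In serum ESC they were 8.05% (EA-2697) and 15.2% (EA-2643), and in 2i ESC 7.74% (EA-3702) and 9.83% (DG-3012). Over all merged regions the KLF4 share was 14.2% and 9.80% on day 3, 10.2% and 10.3% on day 6, 10.6% and 11.3% on day 9, 8.04% and 12.5% in serum ESC and 9.67% and 10.9% in 2i ESC. Held regions thus lay above all regions on every day and near their level in ESC. Their median width was 2649 bp, against 542 bp for all regions. The part of width in this and in the other comparisons with all regions was not tested. All 6 day libraries lay above all 4 ESC libraries, with 35.6% the lowest of the former and 15.2% the highest of the latter. The means were 48.1% ± 14.2 (SD, n = 6) and 10.2% ± 3.44 (SD, n = 4), a difference of 37.9 percentage points (two-sided exact permutation test over libraries, p = 0.00476, adjusted p = 0.0262 over 11 tests). With lists of equal length and the regions drawn again it was 18.5 percentage points, over the core bases shared by the defining libraries 23.5 and within 500 bp of the middle 24.4, and each of these passed the same exact test (p = 0.00476). Within batch EA-3702, which holds 4 day libraries and 1 2i ESC library, the difference was 39.2 percentage points (exact p = 0.400). Setting the day 3 library (72.9%) apart from the rest gave a larger difference than setting the 2i ESC library apart. With 5 libraries the exact p cannot go below 0.200, so no such test could pass. The day libraries came from transgenic cells and the ESC libraries from V6.5, so stage and cell line cannot be told apart. Held regions were also chosen for H3K27ac on days 3 and 9 and for none in ESC. The day and ESC means were 66.4% and 7.29% for regions new at day 3 and 23.0% and 10.0% for those absent at day 3. For regions lost by day 9 they were 11.1% and 2.02%, and for those kept in ESC 63.9% and 62.3%. A lower KLF4 share in ESC was thus not particular to held regions.

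**Figure D3:**
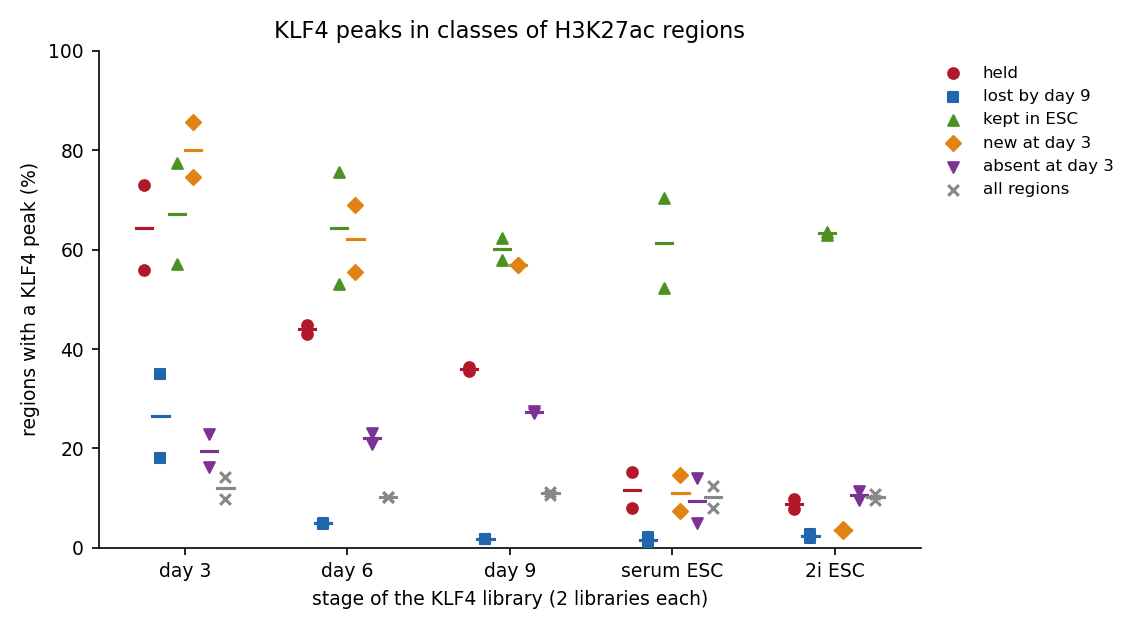
Percent of regions with a KLF4 peak in each library, for held regions, the 4 classes that differ from them at 1 stage, and all merged H3K27ac regions; points are libraries and short lines the mean of 2. Held regions fall from 72.9% and 55.8% on day 3 to 35.6% and 36.3% on day 9, and lie between 7.74% and 15.2% in ESC, while regions kept in ESC stay between 52.2% and 77.5% throughout and regions new at day 3 and lost by day 9 also have lower shares on day 9 than on day 3. Regions absent at day 3 have higher shares on day 9 (27.1% and 27.6%) than on day 3 (22.9% and 16.2%).

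Seen from the KLF4 lists, held regions took up 3.48% and 3.04% of all KLF4 peaks on day 3, 2.73% and 2.75% on day 6 and 2.1% and 2.00% on day 9. In ESC they took up 0.422% to 0.624%. The day mean was 2.68% ± 0.561 (SD, n = 6) and the ESC mean 0.502% ± 0.0942 (SD, n = 4), and the difference of 2.18 percentage points passed the same exact permutation test (p = 0.00476, adjusted p = 0.0262). Again each day library lay above each ESC library. The difference was 1.10 points with lists of equal length (exact p = 0.0143) and 1.20 within 500 bp of the middle (exact p = 0.00476).

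From day 3 to day 9 the KLF4 share of held regions fell by 4.73 percentage points per day (slope -4.73, exact permutation test over 6 libraries, p = 0.0222, adjusted p = 0.0491). The means were 64.4% on day 3, 43.9% on day 6 and 36.0% on day 9. Day 3 cells were unsorted and the later cells were sorted for SSEA1, so across that step day and sorting cannot be told apart. With days permuted within batches the slope was -5.48 (exact p = 0.0417). When all KLF4 lists were held to 21129 peaks and all H3K27ac lists to 17493, and the regions chosen again, the slope was -1.73 and did not pass (exact p = 0.222). Regions new at day 3 went from a mean of 80.1% on day 3 to 62.2% on day 6 and 56.8% on day 9, and regions lost by day 9 from 26.5% to 4.92% and 1.84% (n = 2 each), so lower shares on later days were not particular to held regions. Regions kept in ESC went from 67.2% to 64.4% and 60.2%. Regions absent at day 3 went the other way, from 19.6% to 22.0% and 27.4% (n = 2 each). The slope of held regions did not pass either without the EA-3702 or without the DG-4040 library of day 6 (-4.73 each, exact p = 0.0667), or without day 9 replicate 1 or 2 (-4.98 and -5.08, exact p = 0.100), where 5 libraries remain.

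Single regions showed several KLF4 histories. Both day 3 libraries had a KLF4 peak at 693 held regions (53.6%, all merged regions 8.43%), both day 6 libraries at 443 (34.3%, all regions 7.41%) and both day 9 libraries at 386 (29.9%, all regions 9.18%). In ESC the counts were 83 in both serum libraries (6.42%, all regions 7.26%) and 59 in both 2i libraries (4.57%, all regions 7.02%), shares near those of all regions. Single ESC libraries lay on either side: held regions were at 15.2% against 12.5% of all regions in EA-2643 and at 7.74% against 9.67% in the EA-3702 2i library. All 6 day libraries had a peak at 292 held regions (22.6%, all regions 4.72%), and at 168 of these no ESC library had one (13.0%, all regions 0.702%). KLF4 in both day 3 libraries and in no day 9 library was the pattern of 249 regions (19.3%, all regions 2.00%). The opposite, no day 3 library and both day 9 libraries, was found for 12 regions (0.929%, all regions 1.90%). KLF4 in all 10 libraries marked 14 held regions (1.08%, all regions 2.44%), and 266 had none in any day library (20.6%, all regions 79.9%). The ranks of the KLF4 peaks come from lists of different lengths and are set beside regions kept in ESC of the same library. The median percentile of held KLF4 peaks was 76.0 in both day 3 libraries, 50.3 and 65.8 on day 6, 57.7 and 58.1 on day 9 and 38.5 to 46.2 in ESC, where the regions kept in ESC were at 65.7 to 67.4, 60.1 to 67.9, 62.9 to 64.2 and 61.1 to 67.8.

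On days 3 to 9 held regions had more KLF4 than those lost by day 9 or absent at day 3, and less than those new at day 3 or kept in ESC. In the 6 day libraries regions lost by day 9 had a KLF4 peak in 11.1% ± 13.1 (SD, n = 6), from 34.9% in the EA-3702 library of day 3 to 1.81% on day 9. Held regions were 37.0 percentage points higher on average, and higher in 6 of 6 libraries. Regions absent at day 3 had a KLF4 peak in 23.0% ± 4.19 (n = 6), and held regions were 25.1 points higher, again in 6 of 6. Regions new at day 3 had one in 66.4% ± 12.2 (n = 6), with held regions 18.3 points lower in 6 of 6 libraries (difference -18.3), and in regions kept in ESC it was 63.9% ± 10.3 (n = 6), with held regions 15.8 points lower in 6 of 6 (difference -15.8). These means cover values that differed by day. The difference from regions absent at day 3 was 50.0 and 39.6 on day 3, 22.0 and 21.8 on day 6 and 8.47 and 8.74 on day 9, and that from regions kept in ESC was -4.56 and -1.19, then -32.8 and -8.11, then -22.3 and -26.1. The difference from regions lost by day 9 was at least 33.8 in each of the 6 libraries, and that from regions new at day 3 lay between -24.1 and -12.4. Each of these 4 differences had p = 0.0312 by two-sided exact permutation of signs, the smallest that 6 libraries allow, and an adjusted p of 0.0491. The difference from regions kept in ESC did not pass with the top 50% of each list (-1.02), with lists of equal length (-6.98) or with peaks of a deposited q-value of at most 0.01 (-9.31), and that from regions new at day 3 was -4.42 over the core bases covered in all libraries a class needs (exact p = 0.0625). Within 500 bp of the middle the difference from regions lost by day 9 was 24.0 and that from regions absent at day 3 was 13.5 (exact p = 0.0312 each).

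These differences were not the same in ESC. Held minus lost by day 9 was 37.0 ± 2.39 percentage points in the day libraries (SD, n = 6) and 8.17 ± 3.22 in ESC (n = 4). Held minus kept in ESC was -15.8 ± 12.9 against -52.1 ± 5.33. Held minus new at day 3 was -18.3 ± 4.75 against 2.91 ± 2.74, and held minus absent at day 3 was 25.1 ± 16.7 against 0.155 ± 2.91. The test of days against ESC on the difference itself gave an adjusted p of 0.00635 for the first 3 (exact permutation, p = 0.00476) and 0.00952 for the last (exact permutation, p = 0.00952), over 4 tests chosen after the data were seen. By rule, held regions and those lost by day 9, new at day 3 or absent at day 3 all lack H3K27ac peaks in ESC. Their mean KLF4 shares in ESC were 10.2%, 2.02%, 7.29% and 10.0%, against 62.3% for regions kept in ESC. The 4 tests are therefore not separate from the choice of the classes.

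Held regions with KLF4 on day 6 had a day 6 H3K27ac peak more often than those without. Of the 443 regions with KLF4 in both day 6 libraries, 54.2%, 44.7% and 77.9% had an H3K27ac peak in the 3 day 6 libraries (DG-3458, DG-3458, EA-3702). Of the 600 with none, 28.2%, 20.3% and 47.0% did. The 292 regions with KLF4 in all 6 day libraries were at 57.9%, 51.4% and 82.2%, and the 266 with none at 30.1%, 18% and 43.2%. In each of the 3 libraries the share was higher with KLF4 than without, in both of these comparisons. Width moved with KLF4: the median was 3053 bp with KLF4 in both day 6 libraries and 2299 bp with none, and wide regions had more of both. The 431 widest regions (3331 to 13735 bp) had a day 6 peak in 55.5%, 45.7% and 71.5%, the 431 narrowest (583 to 2129 bp) in 21.1%, 16.0% and 43.9%. KLF4 in the EA-3702 library of day 3 rose from 59.9% of the narrowest to 81.4% of the widest, but in ESC the 4 shares lay between 7.66% and 15.8% in the narrowest and between 6.03% and 15.3% in the widest. How far width accounts for the joint occurrence was not tested.

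**Figure D4:**
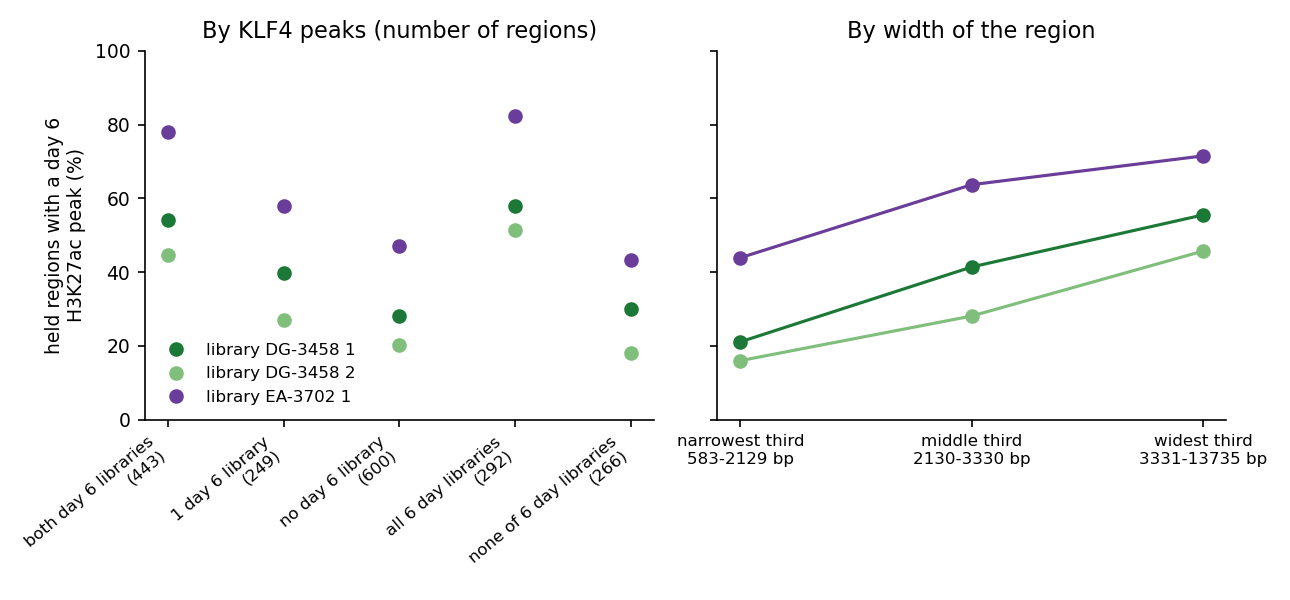
Percent of held regions with an H3K27ac peak in each of the 3 day 6 libraries, left by the KLF4 peaks of the region (number of regions in brackets) and right by its width, split into 431, 430 and 431 regions. In each library the share is higher with KLF4 in both day 6 libraries (44.7% to 77.9%) than with none on day 6 (20.3% to 47.0%), and it rises with width.

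The 284 regions with day 6 acetylation in all 3 libraries stood out from the 428 with none in other ways. Their median width was 3682 against 2121 bp. KLF4 lay at 85.9% against 62.4% of them in the EA-3702 library of day 3, at 66.5% against 24.3% in the EA-3702 library of day 6 and at 57.0% against 22.0% in the first day 9 library. Median percentiles of H3K27ac on day 9 were 74.6 and 76.3 against 41.9 and 42.9, on day 3 they were 84.4, 83.7 and 81.4 against 65.6, 62.6 and 52.3, and in MEF 82.8 and 82.1 against 75.7 and 76.2. Regions with a day 6 peak in all 3 libraries thus ranked higher in each of the 7 defining libraries.

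KLF4 in ESC was found more often at held regions near a gene end. The 229 held regions near a gene end had a KLF4 peak in 14.8% and 27.1% of cases in serum ESC and in 23.1% and 24.9% in 2i ESC. The other 1063 were at 6.59% and 12.6% in serum and at 4.42% and 6.59% in 2i. On day 3 the order was the other way, with 65.5% and 48.0% near gene ends and 74.5% and 57.5% elsewhere. On day 6 the libraries went different ways, with 49.8% near gene ends and 41.5% elsewhere in EA-3702, and 36.2% and 46.8% in DG-4040. Day 9 shares were 30.6% and 34.9% near gene ends and 36.7% and 36.6% elsewhere. Near gene ends the median width was 2131 bp and elsewhere 2740 bp.

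Of the 10 strongest held regions over the 7 libraries, 6 lay in a gene and 4 lay 24.4 to 164 kb from one. First by mean percentile (95.4) was a 7071 bp region in Iqgap2, a cytoskeletal scaffold gene (chr13:95788611-95795681). Its H3K27ac percentiles were 93.3 and 92.8 in MEF, 99.7, 99.8 and 99.3 on day 3, 42.7, 52.6 and 89.1 on day 6 and 93.6 and 89.4 on day 9. KLF4 stood at 99.7 and 99.3 on day 3, 95.9 and 97.9 on day 6 and 93.0 and 90.8 on day 9, and no ESC library had a peak. A region 67.2 kb from Picalm, a clathrin assembly gene (chr7:90058580-90063026), followed at 93.9, with KLF4 in 6 of 6 day libraries and no ESC library. One 24.4 kb from Gm52523 (chr2:112200454-112204423) stood at 93.3 with day 6 peaks at 81.1, 81.1 and 72.9 and with KLF4 in just 2 day libraries, at 17.5 and 2.03. The others of the 10 strongest were a region 52.9 kb from Septin5, regions in the kinesin gene Kif6, in the tRNA methyltransferase gene Trmt11, in Lhfp, in the dynamin gene Dnm3 and in Txndc16, and one 164 kb from Dcn, which encodes the matrix proteoglycan decorin. Of these 10, 9 had a day 6 peak in all 3 libraries, and Txndc16 in 1. The Dcn region (chr10:97312321-97315319) was near the top of the list in MEF (99.6 and 99.3) and had KLF4 in 3 of 6 day libraries, at 73.7, 39.3 and 64.2.

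On day 6 itself the highest ranks among regions with all 3 peaks belonged to a region in Nemp2 (93.2, 90.6 and 89.8), a nuclear envelope gene, and to the region of the Nfatc2 promoter printed above (91.4, 88.1 and 84.5). The Nfatc2 region had no KLF4 peak in any day library and weak ones in 3 ESC libraries, at 27.7, 17.1 and 46.2. A region 49.3 kb from Fmod, which encodes fibromodulin (chr1:133984282-133987923), was weak in MEF (11.6 and 29.2) and strong on day 3 (99.6, 99.5 and 99.1), day 6 (79.6, 87.3 and 95.5) and day 9 (97.1 and 95.5). It had KLF4 in all 6 day libraries at 95.1 to 99.3 and in no ESC library. The other 3 were in Kif6, in the proprotein convertase gene Pcsk7 and 12.8 kb from Cnmd, which encodes chondromodulin. The Cnmd region (chr14:79675028-79679277) had KLF4 at 97.7 to 99.5 in the 6 day libraries and at 55.2, 88.0 and 17.4 in 3 ESC libraries.

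The strongest KLF4 peaks of days 3 to 9 among held regions lay in Ttc28 (chr5:111202911-111208703), with percentiles of 100.0, 100.0, 99.9, 99.9, 99.7 and 98.7. In the 2 serum ESC libraries its KLF4 peaks were at 43.4 and 66.6, and the 2i libraries had none. Next were a region in the forkhead gene Foxn3 (chr12:99283937-99286909), with KLF4 at 98.9 to 99.8 on the days and at 27.7, 48.4 and 51.9 in 3 ESC libraries, and one in Crim1, whose product binds bone morphogenetic proteins (chr17:78215941-78219511). The Crim1 region had KLF4 at 97.3 to 99.6 and none in ESC, yet its day 6 H3K27ac peaks ranked at 7.61, 0.120 and 49.4. High KLF4 rank and high acetylation rank thus did not coincide at Crim1 on day 6. Its H3K27ac percentiles were 69.3 and 75.1 in MEF, 80.9, 54.2 and 41.8 on day 3 and 57.8 and 61.9 on day 9. Regions in Git2, a GTPase-activating protein gene, and in Akap6, a kinase anchor gene, completed the 6 with Cnmd.

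**Figure D5:**
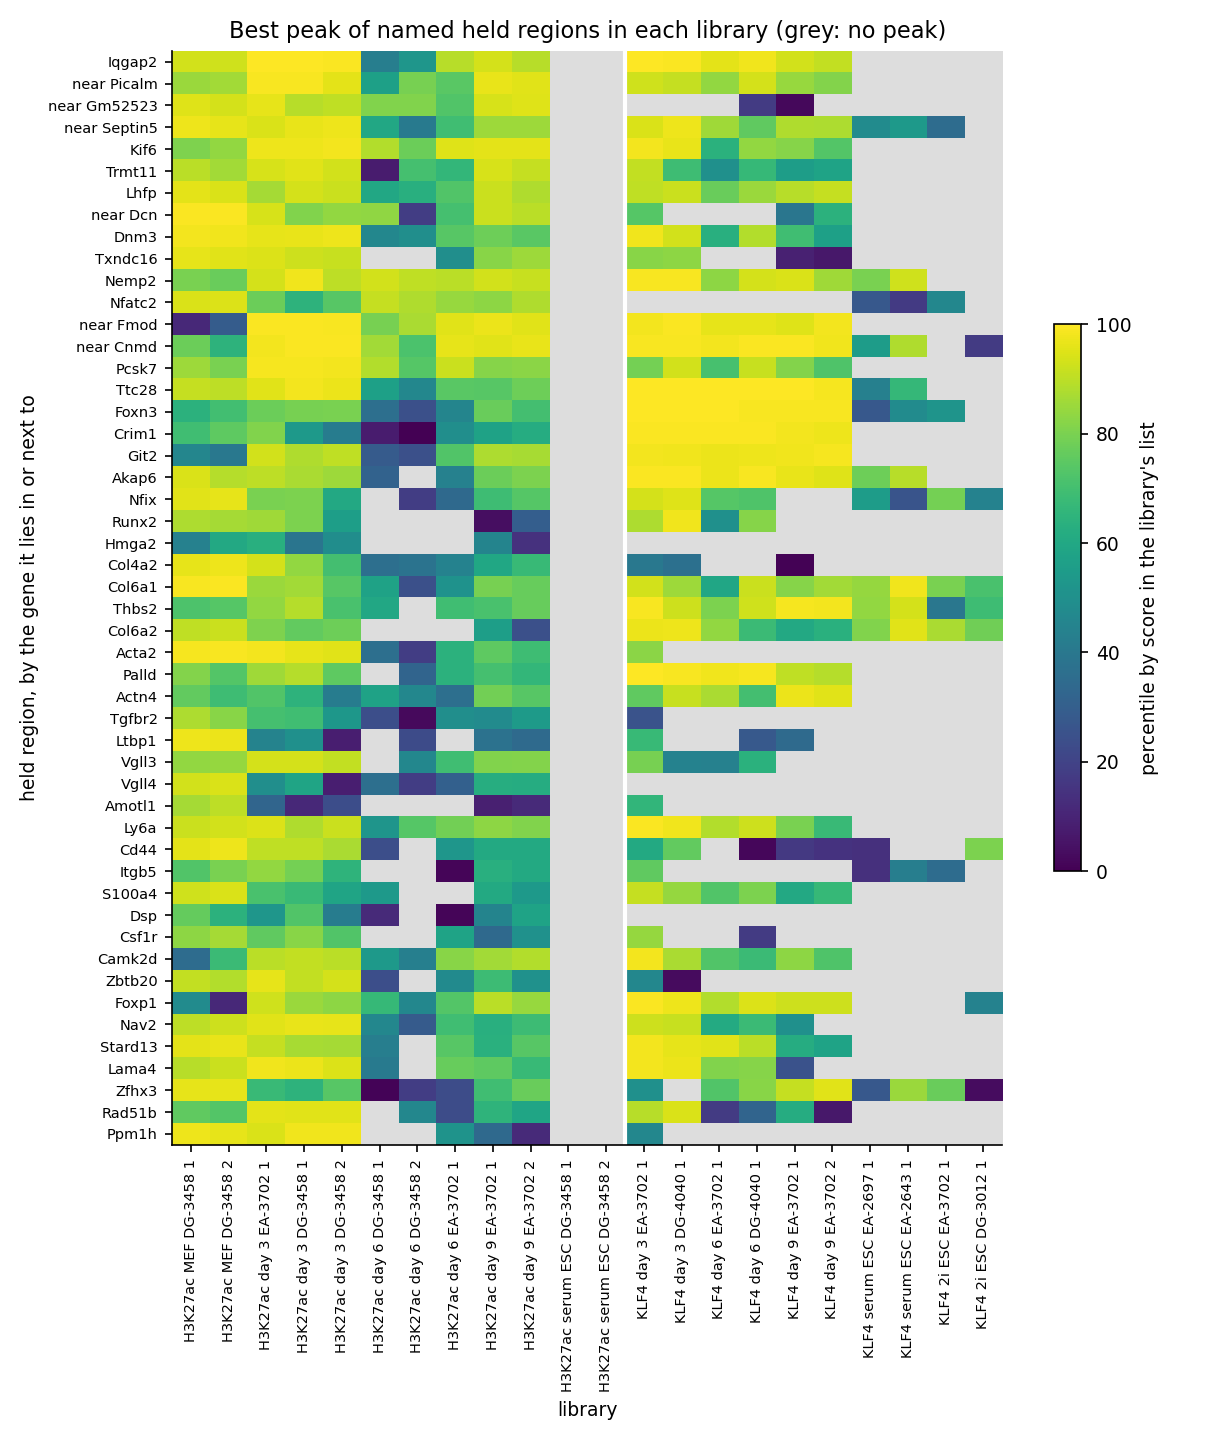
Percentile of the best peak of named held regions (rows, labelled by the gene they lie in or next to) in each of the 22 libraries (columns, H3K27ac left of the white line and KLF4 right of it); grey is no peak. H3K27ac in ESC is grey throughout by the rule, and KLF4 columns of ESC are mostly grey, whereas Ttc28, Foxn3 and Crim1 are near 100 in the 6 day columns.

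By gene, 917 held regions (71.0%) lay within a protein-coding gene or 2.5 kb of it. The gene span alone gave 69.2% of held regions and 56.2% of all merged regions. In all, 772 of 21631 genes (3.57%) had at least 1 held region. Of these genes 645 had 1, 85 had 2, 19 had 3, 13 had 4 and 10 had 5 or more. They were long genes, with a median of 88.2 kb against 17.3 kb for all, and a long gene has more room for a region. Camk2d, a calcium-dependent kinase gene, had 8 held regions in 251 kb. The zinc finger repressor gene Zbtb20 and the forkhead gene Foxp1 had 7 each, and Dnm3, the cytoskeletal gene Nav2 and Stard13 had 6 each. Lama4, a laminin chain gene, the transcription factor gene Zfhx3, the recombination gene Rad51b and the phosphatase gene Ppm1h had 5 each. Lama4 also had the largest cluster, 4 regions within 24.6 kb (chr10:38971232-38995822), with KLF4 in all 6 day libraries at 2 of them. The best Lama4 region had H3K27ac at 89.1 and 92.1 in MEF, 98.0, 97.2 and 94.9 on day 3, 40.8 and 76.8 in 2 of 3 day 6 libraries and 75.1 and 67.2 on day 9.

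Genes of fibroblast identity had held regions in part. Among 24 fibroblast transcription factor genes 3 had one (12.5%, all genes 3.57%): Nfix with 4 regions, Runx2 and Hmga2 with 1 each. Regions lost by day 9 lay at 8 of the 24 (all genes 3.66%) and regions kept in ESC at 11 (all genes 47.2%). These shares of all genes apply to the same counts in the lists that follow. The best Nfix region, in a nuclear factor I gene (chr8:84739747-84745548), had H3K27ac at 95.5 and 96.4 in MEF, 79.7, 80.4 and 60.5 on day 3, 18.2 and 34.0 in 2 day 6 libraries and 69.0 and 73.6 on day 9. Its KLF4 peaks were found on days 3 and 6 (93.6, 95.0, 73.8 and 72.5), in neither day 9 library, and in all 4 ESC libraries. The region in Runx2, the factor of bone formation (chr17:44766739-44769699), had peaks of 87.5 and 86.5 in MEF and of 3.87 and 29.9 on day 9, none on day 6, and KLF4 on days 3 and 6 and not on day 9. The Hmga2 region had no KLF4 in any library and no day 6 peak.

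Collagen and matrix genes had held regions at 6 of 32 (18.8%): Col4a2 with 3, and Col5a2, Col6a1, Col6a2, Lox and Thbs2. Regions lost by day 9 lay at 11 of the 32 and regions kept in ESC at 7. The Col6a1 region, 10489 bp wide (chr10:76723853-76734341), had H3K27ac at 99.1 and 99.4 in MEF, 84.8, 86.3 and 74.1 on day 3, 57.5, 24.3 and 50.9 on day 6 and 79.3 and 76.8 on day 9. It was one of the 14 held regions with KLF4 in all 10 libraries, at 59.2 to 93.0 on the days and at 84.3, 97.9, 80.0 and 71.1 in ESC. Its promoter window itself had a KLF4 peak in 1 day library and no ESC library, so most of these KLF4 peaks lay elsewhere in the region. Regions at Col6a2 and Thbs2 also had KLF4 in all 10 libraries. The Col6a2 region had no day 6 acetylation, and the Thbs2 region had it in 2 libraries, at 60.1 and 69.2.

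Contractile genes had held regions at 5 of 25 (20.0%), among them Acta2, Palld, Actn4 and Actn1. Here 20 of the 25 had a region kept in ESC and 4 a region lost by day 9. The Acta2 region (chr19:34251347-34257192) had H3K27ac at 98.6 and 99.0 in MEF, 98.1, 96.2 and 95.6 on day 3, 36.4, 18.2 and 64.3 on day 6 and 75.1 and 68.9 on day 9. Its one KLF4 peak was in the EA-3702 library of day 3, at 82.7. The region in Palld, which encodes the actin-binding protein palladin (chr8:61641259-61644091), had KLF4 at 99.9 and 99.0 on day 3, 98.0 and 98.6 on day 6 and 90.4 and 88.9 on day 9, and none in ESC. These 2 contractile genes thus differed, with KLF4 in 1 of 6 day libraries at the Acta2 region and in 6 of 6 at the Palld region.

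Of 23 genes of the TGF-beta pathway 2 had a held region (8.70%), the receptor gene Tgfbr2 and the latency protein gene Ltbp1, while 5 had a region lost by day 9 and 18 a region kept in ESC. The Tgfbr2 region (chr9:116144132-116148536) had H3K27ac at 87.6 and 82.3 in MEF and at 48.3 and 54.6 on day 9, with 1 KLF4 peak, at 25.4 in the EA-3702 library of day 3. Of 20 genes of the Hippo pathway and its TEAD targets 3 had one (15.0%): Vgll3 and Vgll4, which encode TEAD cofactors, and Amotl1, a YAP-binding protein gene, while 2 had a region lost by day 9 and 19 a region kept in ESC. The Vgll3 region (chr16:65867547-65870415) had H3K27ac percentiles of 83.7 and 84.2 in MEF, 93.4, 93.4 and 90.8 on day 3, 46.2 and 69.2 in 2 of 3 day 6 libraries and 80.9 and 81.4 on day 9, with KLF4 on days 3 and 6 and not on day 9. The Vgll4 region had no KLF4 in any library.

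Fibroblast surface genes had held regions at 5 of 20 (25.0%): Ly6a, Cd44, Itgb5, S100a4 and Cav2. Regions lost by day 9 lay at 7 of the 20 and regions kept in ESC at 7. The Ly6a region, at the gene of the stem cell antigen Sca-1 (chr15:74994321-75001485), had H3K27ac at 92.0 and 93.2 in MEF, 94.6, 88.0 and 91.9 on day 3, 52.1, 73.6 and 78.7 on day 6 and 83.0 and 80.9 on day 9. KLF4 stood at 99.6 and 97.9 on day 3 and 79.9 and 67.6 on day 9, and no ESC library had a peak. The S100a4 region, which also spans S100a3, had KLF4 in all 6 day libraries and none in ESC, and the Cd44 region in 5 day and 2 ESC libraries. Ly6a, S100a4, Palld and Actn4 shared the pattern of 168 held regions, KLF4 on every day and none in ESC.

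In the other lists 0 or 1 gene had a held region, and at the 3.57% of all genes, lists of this size would hold few, so these counts are not a result about the lists. None of 15 AP-1 factor genes and none of 16 senescence and stress genes had one, and 12 and 15 of these had a region kept in ESC. None of 24 pluripotency genes, 14 extra-embryonic factor genes, 10 endothelial markers or 10 skeletal muscle markers had one. One of 22 epithelial genes did, the desmosomal gene Dsp, whose region had no KLF4 in any library, and one of 10 macrophage markers, Csf1r. Length differed between the lists and was not taken into account: median gene length was 5.46 to 15.3 kb in these lists, except for the endothelial markers (44.6 kb). It was 22.7 kb for the fibroblast transcription factors, 52.6 kb for matrix, 27.1 kb for contractile, 29.8 kb for TGF-beta, 33.8 kb for Hippo and 45.7 kb for surface genes, against 17.3 kb for all genes.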

How the data were processed

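Chromatin of 12 H3K27ac and 10 KLF4 libraries was fixed with formaldehyde, sonicated and precipitated, per the labels' protocols. The submitters' processing notes name cutadapt 1.8.1, Bowtie2 2.2.5, deepTools 2.3.6, MACS2 2.1.1 and build mm10, without roles or settings. One list of peaks, with 10 columns and no header, was deposited by the authors for each library. In it the authors deposited a whole-number score, the whole part of 10 times the −log10 p of the peak. The fold column deposited by the authors is the peak's enrichment, a ratio. The authors deposited each p-value and q-value as its −log10. The score ranked peaks within a list. Read counts are not given, so depth is unknown and precision comes from the spread between libraries. The 13 input libraries were not analysed here. No 2 replicates shared more than 15 identical intervals. The series calls replicates biological and names no separate cultures, so p-values measure the spread between libraries, which may be technical. Peak names inside the 2 day 6 files of batch DG-3458 carry each other's replicate number, and the labels were followed.

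Regions, classes and shares were computed with Python 3.11.15, numpy 2.4.6 and scipy 1.17.1. Tests were two-sided exact permutation tests over libraries, with Benjamini-Hochberg adjustment over 11 tests and a threshold of 0.05, and their code was tested on simulated data. Genes and promoters came from RefSeq (GRCm38.p6, start sites for 79.9% of protein-coding genes, none on chromosome 18). Named regions were the 10 strongest over the 7 defining libraries, the 6 strongest on day 6 and the 6 strongest for KLF4, 3 just inside and 6 just outside the rule, the best regions of the 10 genes with most held regions and of up to 4 genes per list. The members, lists and tests were chosen with earlier results of these data known. Alternatives covered the peaks used, the overlap, core bases, a window about the middle, batches and leaving out each library. Distal sequences were not used here. One named gene's values are not reported here.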

Additional observations from a re-analysis of the deposited data

Results flagged for a closer look

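The KLF4 share of held regions relative to each neighbouring class differed between days 3 to 9 and ESC, which is why these 4 results are listed. The difference between held regions and those lost by day 9 was 28.8 percentage points larger in the 6 day libraries than in the 4 ESC libraries, and that from regions kept in ESC 36.2 points higher. For regions new at day 3 it was lower by 21.2 points (-21.2), and for regions absent at day 3 higher by 25.0 points. Each passed a two-sided exact permutation test of the difference itself (adjusted p = 0.00635 for the first 3 and 0.00952 for the last, over 4 tests). Day and ESC libraries did not overlap in any of the 4. The rules of all these classes used H3K27ac in ESC, so these tests are not separate from the choice of the classes.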

How the results depend on the processing

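Of 155 alternative values, 114 were graded the same, 35 kept their direction and lost the call, 4 moved and 2 reversed. For values with a test, the same meant an unchanged direction and side of the threshold. The day 6 H3K27ac tests rest on 3 libraries or fewer and cannot pass, so only a change of direction could alter their grade. Their difference from regions kept in ESC was graded the same at -43.0 and, with lists of equal length, at -11.4. The count of values graded the same is thus no measure of stability for them. The number of held regions and day 6 differences in single batches have no p-value and so no side of the threshold. With the replicate block, that is within batch EA-3702, the KLF4 difference between days and ESC was 39.2 percentage points (exact p = 0.400) and that in the share of KLF4 peaks 2.14 (exact p = 0.200), where 5 libraries cannot pass. The paired slope was -5.48 (exact p = 0.0417). Where all lists had equal length the slope was -1.73, and leaving out 1 library gave -5.66 to -3.22 (exact p = 0.0333 to 0.100). Leaving out 1 library gave KLF4 differences of 36.4 to 37.6 from regions lost by day 9, -18.8 to -12.5 from those kept in ESC, -19.5 to -17.1 from those new at day 3 and 20.1 to 28.4 from those absent at day 3, all at an exact p = 0.0625, the smallest that 5 libraries allow. The KLF4 difference from regions kept in ESC was -1.02 with the top 50% of each list (exact p = 0.875), -6.98 with lists of equal length (exact p = 0.125) and -9.31 at a q-value of at most 0.01 (exact p = 0.219), and that from regions new at day 3 was -4.42 over the core. In batch EA-3702 alone the day 6 H3K27ac differences were 54.9 from regions lost by day 9, -31.5 from those kept in ESC, 47.5 from those absent at day 3 and, reversed, -3.85 from those new at day 3, which also reversed within 500 bp of the middle (-1.14). The top 50% of each list left 671 held regions. The causes were not tested. The absence of read depth keeps a missing peak from being read as a missing mark.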

Other observations

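Hairpins of 9 miRNA genes overlapped held regions. No share over all miRNA genes or all merged regions stands beside this count, so it is not a result about miRNA genes. Mir199a-2 and Mir214, which share a primary transcript on the strand opposite to Dnm3, lay in one region (chr1:162214570-162227264) with a day 6 H3K27ac peak in 2 of 3 libraries and no KLF4 peak on any day. Mir10a overlapped a region (chr11:96317217-96321415) with H3K27ac in 3 day 6 libraries and no KLF4 on any day, and Mir7009 one (chr3:36474247-36479614) with KLF4 in 6 of 6 day libraries. Mir30a lay in a region with 1 day 6 peak and KLF4 in 2 day libraries. The others were Mir1941, Mir7039, Mir7057 and Mir7093.

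The homeobox genes Hoxb4 (in the Mir10a region) and Hoxd3 had their promoter in a held region with H3K27ac in all 3 day 6 libraries and KLF4 in 0 of 10 libraries. The promoter of Hoxa10, the other homeobox cluster gene among held promoters, lay in a region with no day 6 peak and with KLF4 in 2 of 6 day libraries. The promoters of the annexin genes Anxa1 and Anxa5 (in the Mir7009 region) lay in held regions with KLF4 in 6 of 6 day libraries (22.6% of held, 4.72% of all merged regions). ESC libraries had KLF4 in 0 of 4 at the Anxa1 region and 4 of 4 at the Anxa5 region. Held regions elsewhere at annexin genes varied, with KLF4 in 2 of 6 day libraries at another Anxa5 region, in 3 and in 6 at Anxa3 regions and in 6 at an Anxa2 region. These genes were chosen after their values were seen.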
